A study of Mus musculus with 4 samples.

Results

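Cadherins and protocadherins are the calcium-dependent adhesion molecules by which neurons recognise and hold one another. Members were all table rows with a symbol made of Cdh and a number or starting with Pcdh, 94 of 24421 genes. They comprise 23 cadherins, 59 clustered protocadherins (15 rows of the alpha, 22 of the beta and 22 of the gamma array) and 12 other protocadherins. RNA was profiled in 4 libraries of 100 picked fluorescent brain cells each, 2 labelled excitatory (aCaMKII-positive) and 2 labelled inhibitory (vGAT-positive). The animals were male mice aged 3 to 5 months from colonies carrying the transgenes αCaMKII-Cre or vGAT-IRES-Cre, kept by crossing to wild-type C57Bl/6J mice. The series title concerns a mouse model of Noonan syndrome, but the labels give these libraries no disease allele and no treatment. Cells of a library share the αCaMKII or vGAT driver and not a neuron subtype, and the labels do not name the fluorescent reporter.

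Classical cadherins bind like molecules on the facing cell through their extracellular repeats and tie them to actin through catenins; type I members are widespread, while type II members are expressed in combinations that differ between neuron populations and circuits. Unclustered protocadherins of the delta groups bind more weakly and signal to the cytoskeleton. The clustered protocadherins lie in 3 tandem arrays, in which a neuron chooses a few variable exons; in the alpha and gamma arrays each variable exon is spliced to constant exons shared by the whole array, while beta genes have no constant exons.

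Values are given as deposited, log2(normalized reads + 1). They are not per gene length, so they were compared between libraries and not between genes. Differences are excitatory minus inhibitory on this scale. Separate animals are not named in the labels, and p-values therefore cover only the spread among 4 libraries, part of which may be technical. A library had 12609 to 12798 genes above 0, of which 56 to 58 were members, and the spacing of the lowest values put depth at about 62000000 to 74200000 reads. The median absolute difference between libraries over the tested genes was 0.291 and 0.296 within the labels and 1.66 to 1.68 between them.

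Markers of the labels gave a mixed picture, and both terms refer to the labels throughout. Camk2a, the gene of αCaMKII, was 16.53 and 16.46 (excitatory) against 15.60 and 15.66 (inhibitory; difference 0.87, limma adjusted p = 0.000318). Slc32a1, which encodes vGAT, had a listed 0 in every library, so a listed 0 is not read as absence of expression. Slc17a7 (difference 0.30) and Gad1 (-0.48) did not pass the test (adjusted p = 0.182 and 0.0649). Marker lists of other cells were present and differed between labels beside every member result below. Their sums, in CPM computed from the linear values of a library, were 85.1 and 112 (excitatory) against 660 and 504 (inhibitory) for 5 microglial genes (4 higher in the inhibitory libraries). For 3 oligodendrocyte precursor genes they were 37.2 and 34.8 against 76.1 and 93.9, with Pdgfra at 0 in both excitatory libraries and Cspg4 above 0 in 1 library. For 6 endothelial and pericyte genes they were 14.3 and 16.3 against 0.0477 and 0.157, with Cldn5 and Tek at 0 throughout. The 5 astrocyte genes summed to 19700 and 20300 against 17900 and 15700 (4 higher in the excitatory libraries), and the 5 oligodendrocyte genes to 36300 and 36900 against 50200 and 49400, led by Mbp, the highest gene of every library. For 3 ependymal and choroid plexus genes the sums were 4.96 and 7.51 against 1.34 and 1.09, with Ttr at 0. The glutamatergic list summed to 156 and 144 against 110 and 97.4, and the GABAergic list to 189 and 171 against 165 and 179. The part of these cells in the results was not tested, and in pooled cells fewer cells of a type and less RNA per cell cannot be told apart.

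Over the whole family, large differences in both directions stood beside rows that barely moved. Of 94 members, 32 were listed at 0 in all 4 libraries and 61 reached the minimum for testing, a value of 1 or more in 2 or more libraries. Of these 61, 34 had a limma adjusted p under 0.05, 11 higher with the excitatory label and 23 with the inhibitory one. Over all 13619 genes tested 71.8% passed, 45.0% higher with the excitatory label and 26.8% with the inhibitory one; the share among members was 55.7%. Rows of the arrays share reads. With rows of exactly equal values counted once, 22 of 47 rows passed, 11 in each direction. Rows that differ slightly are still counted apart, among them 20 gamma rows, so these are not counts of separate signals. The median difference was -0.05 over tested members and 0.52 over all tested genes. Because the median over all genes is not 0, each result was also computed after median-of-ratios scaling, called scaled below, which put these medians at -0.59 and -0.01. With it, 65.9% of genes passed (32.4% higher with the excitatory label and 33.5% with the inhibitory one). Scaled, 8 members were higher with the excitatory label and 47 with the inhibitory one, or 8 and 33 with identical rows counted once. The 33 hold 20 gamma rows that nearly coincide. Of the 34, 8 (Cdh8, Cdh10, Cdh19, Pcdh20, Pcdhb12, Pcdhb13, Pcdhb16 and Pcdhb20) were under 1 in both libraries of a label and reached the minimum only through the other label, so they had to differ. They are in the counts below, but their values are given as a description, without a test. Cdh13 and Pcdh11x reached 1 in only 1 library of their low label, so they too needed the other label to reach the minimum. Their tests are limited by this.

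Among the cadherins, several genes had high values under one label and values at or near 0 under the other. Of 23 cadherin genes 12 were listed at 0 in all libraries and 10 were tested; as deposited, 4 were higher under the excitatory and 3 under the inhibitory label (70.0%, against 71.8% of all genes), and after scaling 4 and 4. The median difference was 0.71. The genes at 0 throughout included Cdh5, the cadherin of blood vessel endothelium, and Cdh23, a component of the hair cell tip link, as well as Cdh6, Cdh7, Cdh9, Cdh18, Cdh22 and Cdh24 of type II. The remaining genes at 0 were Cdh15, Cdh16, Cdh17 and Cdh26. Cdh1, the epithelial cadherin, had 1.32 in excitatory replicate 1 and 0 in the other libraries and was not tested.

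**Figure D1:**
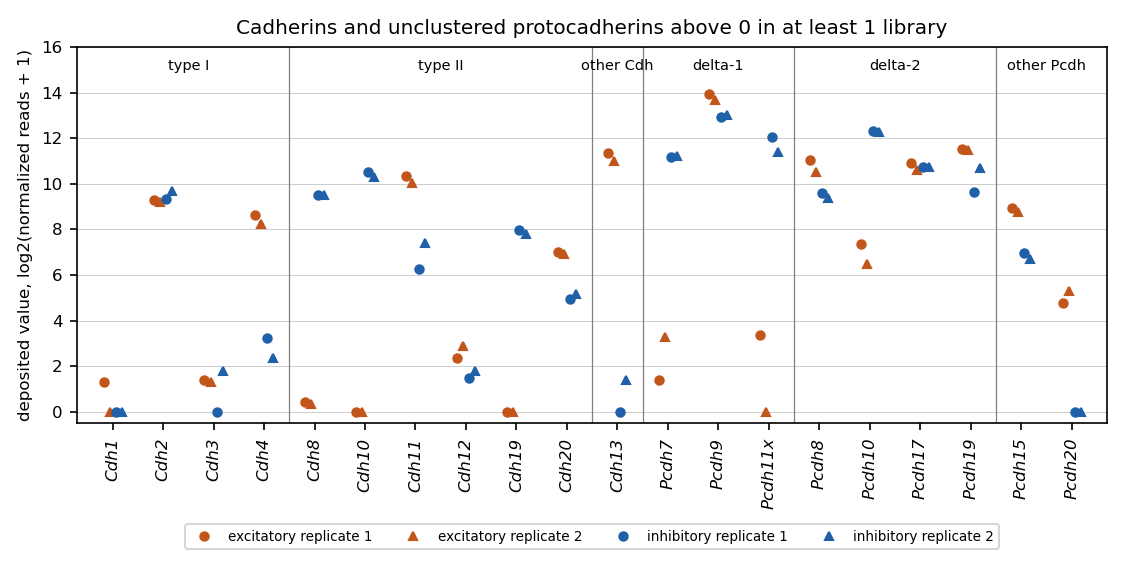
Deposited values, log2(normalized reads + 1), of the 20 cadherins and unclustered protocadherins above 0 in at least 1 library, with genes on the horizontal axis by subclass and 1 point per library (orange excitatory, blue inhibitory, circle replicate 1, triangle replicate 2). Cdh8, Cdh10, Cdh19, Pcdh7 and Pcdh11x are high in the inhibitory libraries and low in the excitatory ones, Cdh13 and Cdh4 are high in the excitatory libraries, and Cdh2 and Pcdh17 lie together in all 4.

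Among the type I genes, Cdh2, which encodes N-cadherin, the main synaptic cadherin, was at nearly one level, while Cdh4 was not. Cdh2 had 9.28 and 9.19 (excitatory) against 9.32 and 9.69 (inhibitory). The inhibitory values lay just above the excitatory ones, and with a difference of -0.27 (SE 0.240) the gene missed the threshold (limma adjusted p = 0.364); scaled it was -0.81 and passed (0.0291). Cdh4, the gene of R-cadherin, had 8.63 and 8.26 (excitatory) against 3.22 and 2.38 (inhibitory). Both excitatory values were far above both inhibitory ones, 50.2-fold (difference 5.65 on the log2 scale, SE 0.436, limma adjusted p = 0.000428), and the call held after scaling (35.3-fold) and without any 1 library. Cdh3, the gene of P-cadherin, stayed between 0 and 1.81 and did not pass.

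Type II genes split by gene. Of 13 genes 7 were at 0 throughout and 6 were tested, of which 2 were higher with the excitatory label and 3 with the inhibitory one in both scalings. That share of 83.3% stands beside 71.8% of all genes as deposited and 65.9% scaled. Cdh10, a type II cadherin of defined cortical and limbic circuits, had a listed 0 in each excitatory library and 10.51 and 10.30 under the inhibitory label. Cdh8, a synaptic adhesion gene of the same type, had 0.43 and 0.34 (excitatory) against 9.50 and 9.49 (inhibitory). Cdh19, known from glial lineages and the neural crest, had 0 and 0 against 7.99 and 7.81. These 3 genes were thus listed at or near 0 in each excitatory library and well above it in each inhibitory one, and they entered the test only through the latter. The oligodendrocyte precursor gene Pdgfra had the same layout, with 0 in both excitatory libraries and 10.84 and 11.51 in the inhibitory ones. Olig1 of the same marker list did not, with 11.54 and 11.40 (excitatory) against 11.13 and 11.10 (inhibitory). Whether precursor cells contributed to the values of these cadherins was not tested.

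Cdh11 and Cdh20 went the other way. Cdh11, a type II cadherin of mesenchymal and neural cells, had 10.35 and 10.03 (excitatory) against 6.27 and 7.41 (inhibitory). The labels did not overlap, but the inhibitory libraries differed from each other by more than the excitatory ones; the difference was 3.35 (SE 0.456, 10.2-fold, limma adjusted p = 0.00258). The call was lost without excitatory replicate 1 (0.106) or excitatory replicate 2 (0.094). The pericyte genes Pdgfrb (8.0 and 7.72 against 0 and 0) and Rgs5 (9.79 and 10.04 against 1.83 and 1.79) were higher in the same libraries. Of the same marker list, Flt1 had 1.37 and 1.87 against 0 and 0. Cldn5 and Tek were at 0 throughout, and Pecam1 was above 0 only in inhibitory replicate 2 (2.82). Whether such cells contributed to the Cdh11 values was not tested. Cdh20 had 6.99 and 6.91 against 4.95 and 5.16, with no overlap (3.71-fold, SE of the log2 difference 0.314, adjusted p = 0.00499; scaled 2.57-fold). Cdh12 was low everywhere (1.5 to 2.88) and did not pass (adjusted p = 0.0850).

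Cdh13 was the only tested gene outside types I and II. It encodes T-cadherin, which is held to the membrane by a lipid anchor and lacks the catenin-binding tail. Its values were 11.37 and 11.00 in the excitatory libraries and 0 and 1.38 in the inhibitory ones. Only 1 inhibitory library reached 1, so the gene met the minimum for testing through the excitatory ones, which limits its test. The gap was the widest towards the excitatory label among tested members (difference 10.50, SE 0.563, limma adjusted p = 0.000159), and the call held after scaling and without any 1 library. The gene lies at chr8:118283733-119324921 of mm10.

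For some genes that moved apart, the 250 bases before a RefSeq start are shown (build GRCm38.p6, read on the gene's strand). RefSeq windows were at hand for 22 of 94 members. Shown are Cdh10, listed at 0 in the excitatory libraries, and 3 members with higher values there, Cdh20, Pcdh15 and Pcdh20; these windows overlap no annotated exon. Capitals mark E-boxes, CANNTG on either strand with N any base, a pattern bound by basic helix-loop-helix factors.
Cdh10: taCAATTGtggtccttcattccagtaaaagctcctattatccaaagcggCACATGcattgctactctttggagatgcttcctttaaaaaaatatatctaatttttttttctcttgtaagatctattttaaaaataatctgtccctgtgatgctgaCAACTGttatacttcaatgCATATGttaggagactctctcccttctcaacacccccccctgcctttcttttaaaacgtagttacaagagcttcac
Cdh20: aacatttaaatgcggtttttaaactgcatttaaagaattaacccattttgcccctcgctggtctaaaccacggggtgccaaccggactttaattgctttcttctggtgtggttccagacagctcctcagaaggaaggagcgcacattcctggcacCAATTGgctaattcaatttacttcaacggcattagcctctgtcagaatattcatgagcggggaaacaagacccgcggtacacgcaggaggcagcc
Pcdh15: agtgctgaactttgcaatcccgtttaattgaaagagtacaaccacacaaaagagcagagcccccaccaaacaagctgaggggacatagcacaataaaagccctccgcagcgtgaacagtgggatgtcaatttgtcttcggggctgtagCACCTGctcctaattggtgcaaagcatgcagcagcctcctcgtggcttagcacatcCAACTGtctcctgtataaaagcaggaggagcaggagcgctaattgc
Pcdh20: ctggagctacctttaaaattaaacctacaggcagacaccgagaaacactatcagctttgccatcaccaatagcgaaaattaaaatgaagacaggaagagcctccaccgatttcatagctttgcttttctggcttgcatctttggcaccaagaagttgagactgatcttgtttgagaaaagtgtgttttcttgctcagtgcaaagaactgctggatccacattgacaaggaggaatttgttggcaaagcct
The windows are chr15:18820079-18820328 (plus strand) for Cdh10, chr1:104768270-104768519 (plus) for Cdh20, chr10:73821617-73821866 (plus) for Pcdh15 and chr14:88471397-88471646 (minus) for Pcdh20. They hold 4, 1, 2 and 0 E-boxes in that order, and 66.2% of 32851 windows of the same length hold at least 1. Pcdh15 alone of the 4 holds TATAAA or its reverse complement (1 match, against 12.4% of all windows). The Cdh10 window is 36.8% C or G, that of Pcdh20 42.4%, Cdh20 47.6% and Pcdh15 50.4%, beside a median of 52.4% over all windows. No clustered gene is shown. Windows of Pcdh8 and Pcdh19 and a window of Pcdh9 (chr14:93890680-93890929) also overlap no annotated exon and are not shown. The calls of these genes were lost after scaling. The Cdh10 and Pcdh15 windows lie inside the GENCODE spans of their genes, which start at 18818947 and 73099342. They precede a RefSeq start within the gene and not its outermost annotated start.

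The unclustered protocadherins had genes higher under either label. Of 12 genes 9 were tested, 5 were higher with the excitatory label and 3 with the inhibitory one, and 1 did not pass, beside 71.8% of all genes passing. Scaled, 2 were higher with the excitatory label and 3 with the inhibitory one, beside 65.9% of all genes passing. The median difference was 0.85, and 0.30 scaled. Without excitatory replicate 1, 2 genes were higher in the excitatory libraries, and without inhibitory replicate 1 or inhibitory replicate 2, 3 were; the count higher in the inhibitory libraries fell to 1 without either inhibitory replicate. Pcdh1, Pcdh12, an endothelial protocadherin, and Pcdh18 were listed at 0 in all libraries.

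The delta-1 genes carry a phosphatase-binding motif in their tails, and 2 of the 3 tested were almost confined to the inhibitory libraries. Pcdh11x, an X-linked gene, had 3.38 and 0 (excitatory) against 12.05 and 11.38 (inhibitory; difference -10.03, SE 1.18, limma adjusted p = 0.00156). Its call was lost without inhibitory replicate 1 (0.0939) or inhibitory replicate 2 (0.0853), and the excitatory libraries differed from each other by several log2 units. Pcdh7 had 1.40 and 3.30 against 11.19 and 11.23 (difference -8.86, SE 0.692, adjusted p = 0.000444), a call also lost without inhibitory replicate 1 (0.0535) or inhibitory replicate 2 (0.0531). In both genes each inhibitory value was far above each excitatory one. Only 1 excitatory library reached 1 for Pcdh11x, so it met the minimum for testing through the inhibitory ones, which limits its test. An annotated gene on the opposite strand, 4932441J04Rik, shares 2235 exon bases with Pcdh7 and was listed at 0 in all libraries; the library kits are not described as keeping strand.

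Pcdh9, the third, was high in every library. It had 13.96 and 13.66 (excitatory) against 12.92 and 13.00 (inhibitory), with no overlap. The difference of 0.85 (SE 0.142, 1.80-fold, limma adjusted p = 0.00511) was lost without inhibitory replicate 1 (0.104) or inhibitory replicate 2 (0.0920) and after scaling (0.30, adjusted p = 0.0900). Per kilobase of annotated exon, its linear level averaged 2130 (excitatory) and 1180 (inhibitory), above every other member outside the arrays in both. Next on this per-length scale stood Pcdh8 (393) and Pcdh19 (280) for the excitatory label, and Pcdh10 (318) and Pcdh11x (248) for the inhibitory one. The gene spans chr14:93013410-93890679.

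Delta-2 genes recruit actin regulators of the WAVE complex or endocytic partners, and the tested ones were detected in all 4 libraries. Pcdh10 had 7.36 and 6.49 (excitatory) against 12.32 and 12.28 (inhibitory). The inhibitory values nearly coincided and lay well above both excitatory ones (41.6-fold, log2 difference -5.38, SE 0.350, limma adjusted p = 0.000261), and the call held after scaling and without any 1 library. The opposite-strand gene 1700027H10Rik, which shares 154 exon bases with it, had 5.18 and 3.76 against 8.84 and 8.73. Reads of these overlapping bases cannot be told apart.

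The other delta-2 genes moved little or towards the excitatory label. Pcdh8, an activity-regulated gene also called arcadlin, had 11.05 and 10.50 against 9.59 and 9.38 (2.44-fold, limma adjusted p = 0.0108); the labels did not overlap, but the call was lost without either inhibitory replicate (0.117, 0.140) or the excitatory replicate 1 (0.0696) and after scaling (0.0605). Pcdh19, the X-linked gene of a human epilepsy limited mostly to females, had 11.53 and 11.50 against 9.65 and 10.68 (2.55-fold, adjusted p = 0.0281). Its inhibitory libraries differed by about as much as the labels did, and the call was lost without excitatory replicate 1 (0.259) or excitatory replicate 2 (0.251) and after scaling (0.110). Pcdh17 had 10.90 and 10.59 against 10.75 and 10.73, with both inhibitory values inside the excitatory range (difference 0.01, SE 0.193, adjusted p = 0.976; -0.53 after scaling, 0.0550).

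Outside the delta groups, Pcdh15 was higher in the excitatory libraries in both scalings. Pcdh15, the partner of Cdh23 in the tip link and also a gene of oligodendrocyte precursors, had 8.96 and 8.78 against 6.97 and 6.71. The labels did not overlap (4.09-fold, SE of the log2 difference 0.274, limma adjusted p = 0.00249), and the call was lost without excitatory replicate 1 (0.0513). Pcdh20 had 4.76 and 5.29 against a listed 0 in both inhibitory libraries, and entered the test only through the excitatory ones. Of the precursor genes, Pdgfra had its higher values under the opposite label to Pcdh15. Olig1 had 11.54 and 11.40 (excitatory) against 11.13 and 11.10 (inhibitory) and did not pass, and Cspg4 was not tested. Whether precursor cells contributed to the Pcdh15 values was not tested.

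**Figure D2:**
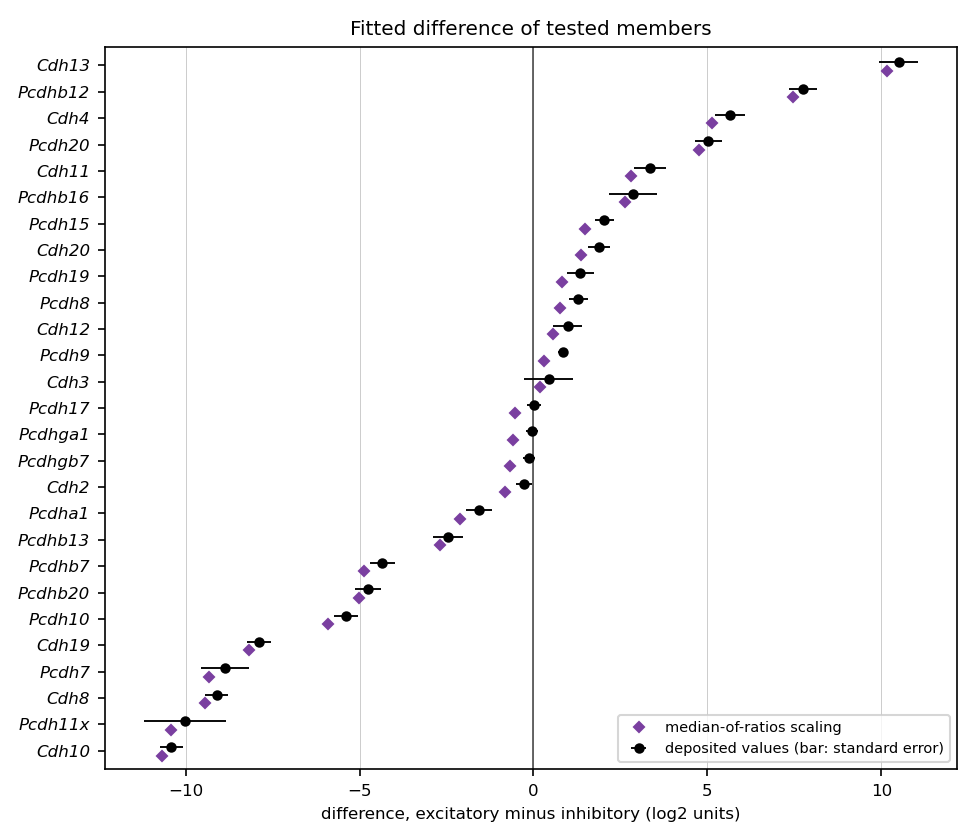
Fitted difference, excitatory minus inhibitory in log2 units, of 27 tested members (black circles with standard errors, deposited values; purple diamonds, after median-of-ratios scaling), with genes on the vertical axis in order of the difference. Points run from -10.41 for Cdh10 to 10.50 for Cdh13, and the scaled points lie to the left of the deposited ones.

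In the clustered arrays the row is not an independent measurement. Of 61 tested members 19 (31.1%) had the same 4 values as another gene, against 335 of 13558 other tested genes (2.47%). In GENCODE M21, 48.6% to 54.9% of the exon bases of an alpha gene (median 53.5%; 13 of 15 rows matched) and 27.8% to 66.8% of those of a gamma gene (median 44.7%) also belong to another family member. Among beta genes this share was 0.0% in the median and at most 9.7%, and it was 0.0% for all 35 cadherins and unclustered protocadherins. Of 42 tested clustered rows 2 were higher with the excitatory label and 17 with the inhibitory one (45.2%, against 71.8% of all genes). With rows of exactly equal values counted once the numbers were 2 and 5, and scaled they were 2 and 40, or 2 and 26 counted once. The 26 hold 20 gamma rows that nearly coincide and 3 alpha rows, so they are not 26 separate signals. The 5 likewise hold 2 alpha rows that differ only in excitatory replicate 2. Over all genes 65.9% passed after scaling. The count of 17 fell to 2 without excitatory replicate 2 and to 3 without inhibitory replicate 1 or inhibitory replicate 2, and the count of 2 to 1 without either inhibitory replicate.

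**Figure D3:**
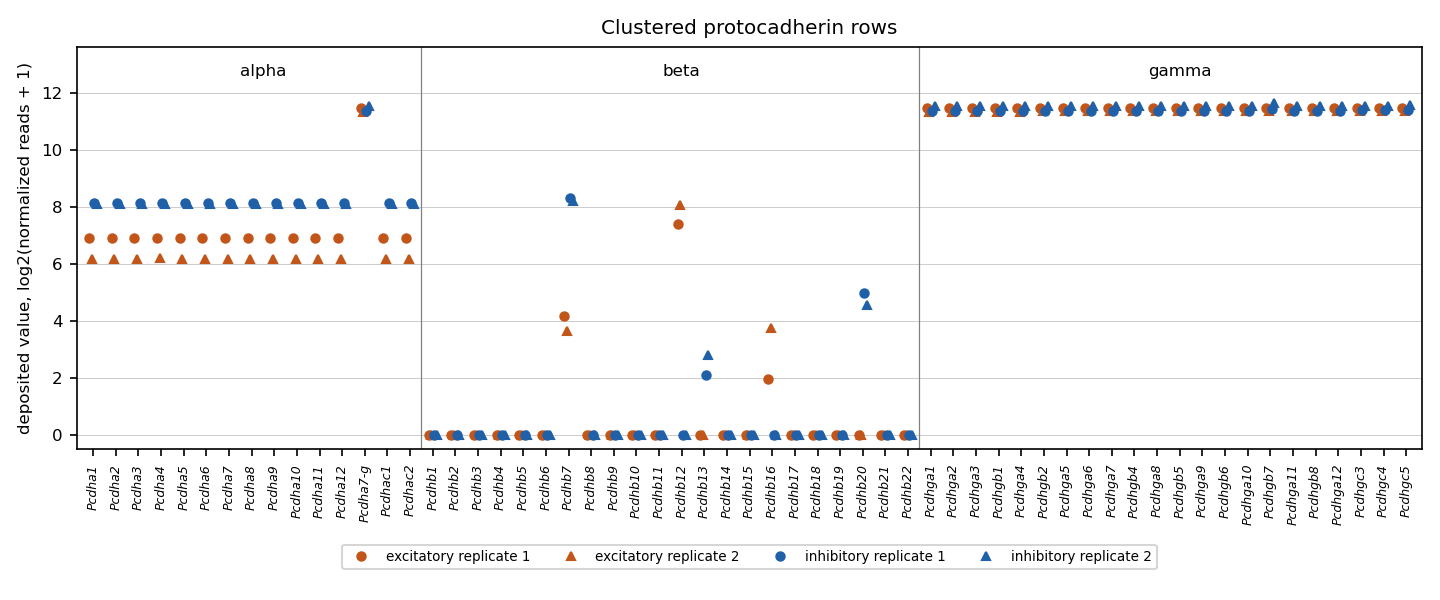
Deposited values, log2(normalized reads + 1), of the 59 clustered protocadherin rows, with the arrays side by side (alpha and beta rows by number, gamma rows in chromosome order) and 1 point per library. The alpha rows other than Pcdha7-g repeat one pattern, 17 of 22 beta rows are at 0, and the gamma rows lie between 11.33 and 11.64.

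The alpha array gave essentially 1 signal. The 13 rows Pcdha1 to Pcdha3, Pcdha5 to Pcdha12, Pcdhac1 and Pcdhac2 each had 6.911 and 6.157 (excitatory) against 8.123 and 8.081 (inhibitory). The array was lower in both excitatory libraries, which also differed more from each other (2.96-fold between labels, log2 difference -1.57, SE 0.368, limma adjusted p = 0.0160; scaled -2.11, adjusted p = 0.00635). The call was lost without either inhibitory replicate (0.159, 0.15) or excitatory replicate 2 (0.0593). At these values 1 read is worth 0.0154 and 0.0247 (excitatory) against 0.00372 and 0.00464 (inhibitory), above the third decimal of the tables. No read was therefore recorded for any of these rows apart from the others, including Pcdhac1 and Pcdhac2, the C-type genes at the end of the array. Pcdha4 differed only in excitatory replicate 2, where it had 6.21 against 6.16.

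The row Pcdha7-g had 11.47, 11.33, 11.35 and 11.53 and went with the gamma array, within 0.001 of its lowest row in every library. RefSeq gives the name as a synonym of Gm38667, a gene that runs from the alpha into the gamma array. Gm37013, which carries the synonym Pcdha4-g and lies outside the rule, had the same 4 values to 2 decimals. Pcdha7-g did not pass the test (difference -0.04, limma adjusted p = 0.837) and was higher in the inhibitory libraries after scaling (-0.58, adjusted p = 0.0224).

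Beta genes have no constant exons, and most were listed at 0. In every library 17 of 22 rows had a listed 0. Among the 5 others, 2 had higher values with the excitatory label and 3 with the inhibitory one, and 4 entered the test only through the label in which they were above 0, so that their passing it is no result. Pcdhb12 had 7.40 and 8.07 in the excitatory libraries and a listed 0 in both inhibitory ones. An opposite-strand gene, Gm37446, overlaps its exons. Pcdhb16 had 1.97 and 3.74 against 0 and 0. Both were thus above 0 in each excitatory library and listed at 0 in each inhibitory one.

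The other 3 beta genes had the opposite layout. Pcdhb7 had 4.18 and 3.63 (excitatory) against 8.29 and 8.21 (inhibitory; 20.3-fold, log2 difference -4.35, SE 0.356, limma adjusted p = 0.000509). Pcdhb20 had 0 and 0 against 4.96 and 4.56. Pcdhb13 was at 0 against 2.12 and 2.81. Pcdhb7 was the only beta gene above 0 under both labels.

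The gamma array stood at one level in all libraries. Pcdhga1, the row at its start, had 11.467 and 11.331 (excitatory) against 11.350 and 11.529 (inhibitory), so that the labels overlapped. None of the 22 gamma rows passed the test in the deposited values, beside 71.8% of all genes. Their differences ran from -0.13 to -0.04 (Pcdhga1 -0.04, SE 0.163, limma adjusted p = 0.837). Scaled, all 22 were higher in the inhibitory libraries (Pcdhga1 -0.58, limma adjusted p = 0.0224), beside 33.5% of all genes. The 22 rows nearly coincide within a library, so neither count stands for 22 separate measurements. Pcdhga9 and Pcdhgb5 were identical in all libraries, as were Pcdhga10 and Pcdhgb6. Across the 22 rows the values of a library differed by 0.347% and 0.906% (excitatory) and by 5.78% and 8.15% (inhibitory) on the linear scale, beside about 2190, 2090, 3620 and 3390 estimated reads in the lowest row.

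Individual gamma rows stood above this shared level to unequal extents. Their excess in reads was estimated by dividing linear differences by the spacing of the lowest values in the library; the third decimal of the tables is worth 1.45 to 2.51 reads here, so steps of that size are at the resolution. Pcdhgb7 exceeded the lowest row by 209 and 276 reads in the inhibitory and by 7.6 and 11.6 in the excitatory libraries. It was the highest row in both inhibitory libraries and stood 154 and 274 reads above Pcdhgb8 there, against 1.52 and 0.0 in the excitatory ones. Its fitted difference of -0.13 (SE 0.166) did not pass (limma adjusted p = 0.512), and its excess over the lowest row was not tested apart from the shared part. An opposite-strand gene, Gm26672, overlaps exons of Pcdhgb7 and also of Pcdhga10, Pcdhga11 and Pcdhga12, and has no row in the tables used here. Pcdhga10 stood 48.0 and 2.35 reads and Pcdhga11 58.2 and 16.5 reads above the lowest row in the inhibitory libraries.

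The C-type gene Pcdhgc5, next to the constant exons, came second in the inhibitory libraries with 130 and 61.6 reads above the lowest row, against 6.08 and 18.9. In inhibitory replicate 1 Pcdhgc3 and Pcdhgc4 followed with 102 and 96.7 reads, but in inhibitory replicate 2 they had 4.7 each. Values were higher than or equal to the preceding row along the chromosome in 20, 21, 18 and 19 of 21 steps between neighbouring rows in excitatory 1, excitatory 2, inhibitory 1 and inhibitory 2. How the authors assigned reads to rows is not given in the sources used here, so the excess of a row is not shown to be its own reads.

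**Figure D4:**
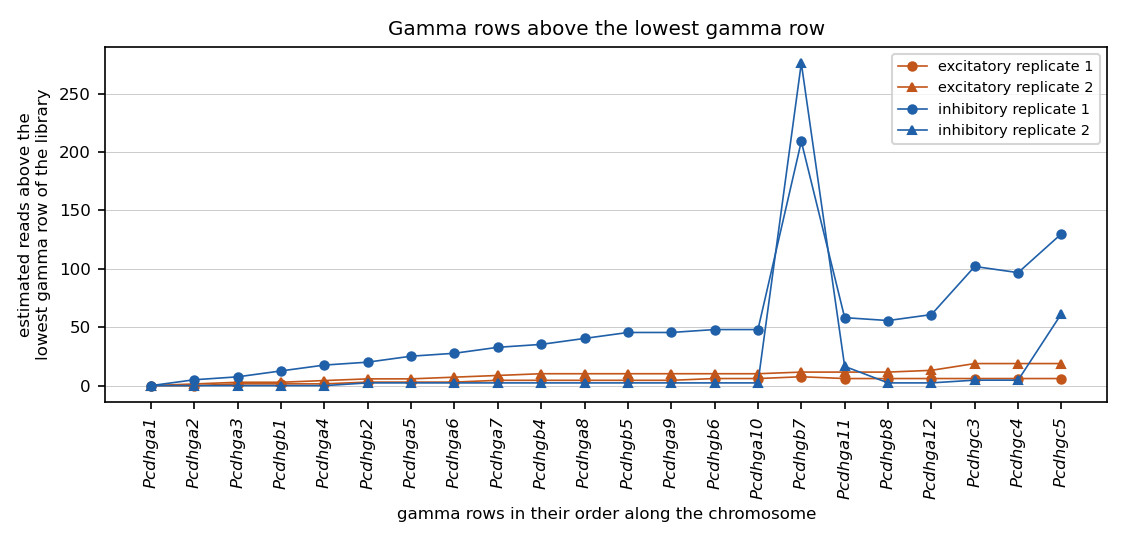
Estimated reads above the lowest gamma row of the same library (vertical axis) for the 22 gamma rows in chromosome order (horizontal axis), with 1 line per library. Pcdhgb7 reaches 209 and 276 in the inhibitory libraries, while the excitatory libraries stay at or below 18.9 throughout.

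Catenins link cadherin tails to actin and to signalling. They passed the test about as often as all genes (72.7% against 71.8%), in both directions. Of 11 tested genes 5 were higher with the excitatory label and 3 with the inhibitory one (4 and 3 scaled), with a median difference of 0.48 (-0.06 scaled); without excitatory replicate 1 the count of 5 fell to 3. Ctnna2, the gene of the neuronal alpha-catenin, had 14.71 and 14.22 (excitatory) against 11.06 and 10.98 (inhibitory; 10.9-fold, SE of the log2 difference 0.199, limma adjusted p = 0.000190). Ctnnd1, which encodes p120-catenin, a stabiliser of cadherins at the membrane, had 3.70 and 2.63 against 10.33 and 10.17 (difference -7.08, SE 0.459, adjusted p = 0.000259). Jup, the gene of plakoglobin, had 2.39 and 1.90 against 7.63 and 7.72 (difference -5.53, SE 0.366, adjusted p = 0.000275). For these 3 genes the labels lay far apart, and the calls held after scaling and without any 1 library.

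Pkp4, a relative of p120-catenin, had 14.03 and 14.06 (excitatory) against 12.89 and 13.02 (inhibitory; 2.13-fold, limma adjusted p = 0.000836). Ctnnb1, the gene of beta-catenin, had 15.28 and 14.94 against 14.66 and 14.59, without overlap (1.40-fold, adjusted p = 0.0270). That call was lost after scaling, where the difference was -0.06 (0.696), and without either inhibitory replicate (0.203, 0.240) or the excitatory replicate 1 (0.0885).

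**Figure D5:**
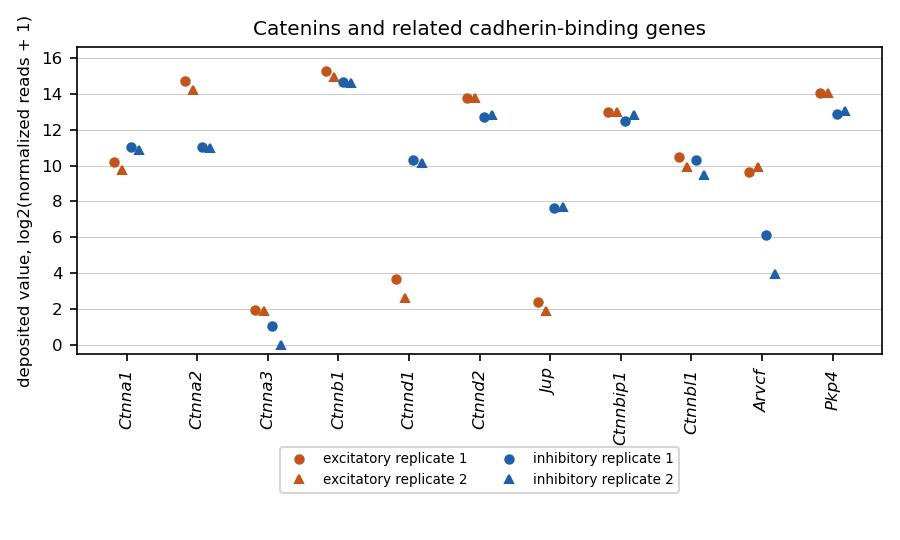
Deposited values, log2(normalized reads + 1), of 11 catenins and related cadherin-binding genes, with 1 point per library (orange excitatory, blue inhibitory). Ctnnd1 and Jup are lower in the excitatory libraries, Ctnna2 and Arvcf are higher there, and Ctnnb1 lies between 14.59 and 15.28 in all 4.

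More distant members of the cadherin superfamily passed in a share near that of all genes, 70.0% against 71.8%. Of 22 listed genes 20 were in the tables, 9 of them at 0 throughout, and 10 were tested; 3 were higher with the excitatory label and 4 with the inhibitory one in both scalings, and the 4 fell to 0 without inhibitory replicate 1 or inhibitory replicate 2. Celsr3, a large adhesion receptor of axon tracts, had 10.15 and 9.84 in the excitatory libraries and a listed 0 in both inhibitory ones. Its relative Celsr2 had 10.62 and 10.15 against 11.73 and 11.64 (2.46-fold higher in the inhibitory libraries, limma adjusted p = 0.00550), a call lost without inhibitory replicate 1 (0.108) or inhibitory replicate 2 (0.0969). Among the giant Fat cadherins, Fat3 had 7.75 and 7.96 (excitatory) against 0.47 and 0 (inhibitory). Celsr3 and Fat3 entered the test only through the excitatory libraries, so their values are a description. Fat1 had 6.18 and 5.30 against 8.85 and 8.72 (8.26-fold, adjusted p = 0.00229), lost without inhibitory replicate 1 (0.0830) or inhibitory replicate 2 (0.0776). Celsr2 and Fat1 thus had their higher values in the inhibitory libraries.

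Regulators of the clustered arrays include CTCF and cohesin, which loop enhancers to the chosen promoters, and silencers such as SMCHD1 and SETDB1. Of 19 listed genes 18 were in the tables and 17 were tested; 7 were higher with the excitatory label and 3 with the inhibitory one (6 and 5 scaled; 58.8% passed as deposited, against 71.8% of all genes), with a median difference of -0.10 (-0.65 scaled), opposite in sign to the balance of counts. The 3 fell to 1 without inhibitory replicate 1 or inhibitory replicate 2. Setdb1, a histone methyltransferase gene, had 10.68 and 10.36 (excitatory) against 3.43 and 3.39 (inhibitory; 139-fold, SE of the log2 difference 0.299, limma adjusted p = 9.89e-05). Smchd1 had 10.45 and 10.61 against 6.42 and 6.78 (15.2-fold, adjusted p = 0.000292). Both silencers lay far above the inhibitory values in each excitatory library.

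Among the cohesin genes, Pds5a, a cohesin cofactor, had 5.41 and 5.50 against 0 and 0.78, and entered the test only through the excitatory libraries. Mau2, part of the loader, had 10.30 and 9.90 against 6.92 and 6.48 (10.6-fold, limma adjusted p = 0.000683). Ctcf itself had 9.61 and 9.20 against 10.17 and 9.26, with overlapping labels (adjusted p = 0.499).

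Effector genes of cadherins and protocadherins were more often higher than lower with the excitatory label, as were all genes in the deposited values. Of 22 genes of the WAVE complex, kinases, scaffolds and shedding proteases, 16 were higher with the excitatory label and 3 with the inhibitory one, with a median difference of 0.86, beside 45.0% and 26.8% of all genes and their median of 0.52. Scaled, the counts were 9 and 3 and the median 0.32, beside 32.4% and 33.5% of all genes and -0.01. Without excitatory replicate 1 or excitatory replicate 2 the count of 16 fell to 8 and 7. Abi1, a WAVE complex subunit, had 15.21 and 15.32 (excitatory) against 12.94 and 12.69 (inhibitory; 5.46-fold, limma adjusted p = 0.000140). Ptk2b, the gene of the kinase PYK2 that binds protocadherin tails, had 14.40 and 14.42 against 13.10 and 12.90 (2.65-fold, adjusted p = 0.000488). Axin1, a scaffold of beta-catenin breakdown, had 7.83 and 7.79 against 0 and 0, and entered the test only through the excitatory libraries. Against this direction, Ncstn, which encodes the gamma-secretase subunit nicastrin, had 3.84 and 3.30 against 10.45 and 10.23 (109-fold, adjusted p = 0.000134). The labels did not overlap in any of these 4 genes, and the calls of Abi1, Ptk2b and Ncstn held after scaling and without any 1 library.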

How the data were processed

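The authors' deposited tables hold 1 log2 value per gene symbol and library. The submitters' processing notes name TopHat, edgeR and build mm10, without versions or roles. The counting tool, annotation and scaling were not named in labels or headers. The added 1 and the log2 base were read from the even spacing of the lowest values, so depths in reads are estimates. In R 4.3.3, limma 3.58.1 with a mean-variance trend tested the 13619 genes that reached 1 in 2 or more libraries (Benjamini-Hochberg over all, threshold 0.05; prior 2.56 and residual 2 degrees of freedom). The test was checked on simulated data. Exon lengths and overlaps came from GENCODE M21 on mm10 (92 of 94 members matched), and promoter windows from RefSeq. Alternatives were 2 scalings, a pseudocount of 16, 2 filters, no trend, a replicate block and leaving out each library. Members and lists were chosen with earlier results of these data known. Every member could be named; of each partner list up to 4 genes past the threshold by smallest p were named. Ctcf, Ctnnb1, Arvcf, Gm37013, the opposite-strand genes and single marker genes were named after their values were seen.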

Additional observations from a re-analysis of the deposited data

How the results depend on the processing

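Both scalings moved clustered members higher in the inhibitory libraries from 17 to 40, their median difference to -0.59, other protocadherins higher in the excitatory libraries to 2, effector genes so to 9 (median-of-ratios) and 10 (upper-quartile), and loop regulators higher in the inhibitory libraries to 5 and 6. The median of other protocadherins became 0.30 and 0.31, and 0.43 with a filter at 5. With identical values counted once, 5 clustered rows were higher in the inhibitory libraries. A pseudocount of 16 gave a cadherin median of 0.13, and it and the filter at 5 left 1 clustered member higher in the excitatory libraries. The scalings turned the differences of Pcdh17 (-0.53), Ctnnb1 (-0.06) and Slc17a7 (-0.24). Leaving out 1 library gave ranges of 0.19 to 1.23 (cadherin median), -0.13 to 0.03 (clustered median), 0.70 to 1.0 (median of other protocadherins), 1 to 2 and 2 to 16 (clustered members higher in the excitatory and inhibitory libraries), 2 to 4 and 1 to 3 (other protocadherins), 3 to 6 (catenins, excitatory), 0 to 4 (superfamily, inhibitory), 1 to 2 (loop regulators, inhibitory) and 7 to 11 (effectors, excitatory). A lone library was then assumed to vary like the others. It turned the sign of Cdh3 (range -0.47 to 1.34, negative without inhibitory replicate 1), Pcdh17 (-0.15 to 0.16, negative without excitatory replicate 1) and, without inhibitory replicate 2 and for all but Pcdhgc5 also without excitatory replicate 2, of Pcdha7-g and Pcdhga1 (each -0.13 to 0.05, 0.03 without excitatory replicate 2), Pcdhga9 and Pcdhga10 (-0.13 to 0.04, 0.02), Pcdhgc3 (-0.12 to 0.02, 0.01) and Pcdhgc5 (-0.15 to 0.01). The cause was not tested.

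Replicate numbers are shared between the labels, but nothing says that they pair libraries, and deviations of same-numbered libraries correlated at -0.00193 over genes. The fit with the replicate block gave the same counts for every class: 4 and 3 cadherins, 2 and 17 clustered and 5 and 3 other protocadherins, and it changed no call among the 33 members followed singly. Of these 33, 31 kept direction and call with the pseudocount of 16, 31 without the trend, 21 under either scaling and 19 to 27 without 1 library. Precision is limited by 2 libraries per label.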
